A study of Mus musculus with 12 samples.

Results

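The 42 genes described here encode the proteins that copy DNA, together with the cyclins and E2F factors that carry a cell from G1 into S phase. They were chosen by name, as the rows of the raw count table that carry one of 42 listed gene symbols, and all 42 were found among 49671 gene rows. All 42 passed the filter on low counts, which kept 15271 genes. By role they comprise 10 genes of origin licensing, 5 of helicase activation, 5 of the sliding clamp and its loader, 5 of the DNA polymerases and primase, 2 of Okazaki fragment maturation, 4 of nucleotide supply, 5 of chromatin assembly and maintenance, 4 G1 cyclins and 2 E2F activators.

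In G1 the origin recognition complex, Cdc6 and Cdt1 load the ring-shaped MCM2-7 helicase onto origins, and in S phase Cdc45 and the GINS complex turn that ring into a working helicase. Replication factor C then opens the PCNA ring onto DNA so that the polymerases can extend their primers, while Okazaki fragments are trimmed and joined behind them. D-type and E-type cyclins with their kinases inactivate the retinoblastoma proteins, which frees E2F factors to transcribe most of these genes, and stellate cells of the pancreas take up this programme when they leave quiescence and proliferate.

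PolyA-selected RNA was sequenced from ImPSC-1, a mouse pancreatic stellate line labelled as pancreatic mesenchymal cells, in 4 stable derivatives of 3 libraries each. The shCtrl cells are the knockdown control and carry the genotype label WT, the shKitl cells carry the label Kitl knock down, the Egfp_OE cells overexpressed Egfp as the control, and the Kitl_OE cells overexpressed Kitl, which encodes the KIT ligand (stem cell factor). All groups share the one parental line, so that each group is a single derivative, and the labels name neither the promoter of the transgenes nor whether the derivatives were clonal or pooled. The design asked what altered Kitl does inside the mesenchymal cell that makes it, by setting shKitl against shCtrl and Kitl_OE against Egfp_OE. Whether the 3 libraries of each derivative were grown apart is not in the labels, and p-values therefore reflect the spread among the sequenced libraries, which may be technical. The descriptions carry a P number (14 to 16 in shCtrl, 13 to 15 in shKitl, 17 to 19 in Egfp_OE and 18 to 20 in Kitl_OE) whose meaning is not given.

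Library totals ran from 24979742 to 33517686 counts in genes. In CPM (counts scaled by library size and a TMM factor to a common total), the targeted gene Kitl stood at 73.4, 73.5 and 76.3 CPM in shCtrl and 25.1, 25.5 and 30.3 CPM in shKitl, and at 72.4, 31.8 and 72.2 CPM in Egfp_OE and 125, 114 and 128 CPM in Kitl_OE. Its libraries did not overlap in either comparison, and Egfp_OE replicate 2 lay far below the other Egfp_OE libraries. Of 10 stellate and fibroblast markers all 10 passed the filter. So did 2 of 12 listed epithelial markers (Krt19 and Cela1), 3 of 6 endothelial markers (Kdr, Tek and Vwf) and 1 of 7 blood cell markers (Cd68). The epithelial genes Prss1, Ins1 and Ins2 and the lymphocyte gene Cd3e had 0 counts in every library. Blood cell markers summed to 1.17 to 3.44 CPM, endothelial markers to 6.48 to 27.9 CPM and epithelial markers to 4.57 to 15 CPM over all libraries.

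Egfp_OE replicate 2 stood apart from the other Egfp_OE libraries, and across all genes its difference ran with exonic length. Against the mean of the other Egfp_OE libraries, the median log2 difference in this library was 1.37 for 201 genes with under 1000 exonic bases and -0.59 for 3668 genes with over 6000, and spike-in RNA took 1.35% of its counts against 0.446% to 0.684% in the other 11. Among the 42 genes, Gins2 (62.9, 115 and 64.3 CPM in the 3 Egfp_OE libraries) and Rfc2 (101, 161 and 106 CPM) were higher in it. Pole, the catalytic subunit of the leading-strand polymerase, stood at 126, 34.8 and 136 CPM, Pola1 at 177, 78.3 and 171 CPM and Ccnd1 at 347, 147 and 487 CPM, so that these 3 were far lower in it. The Pearson correlation of this difference with log2 exonic length was -0.56 across 10488 genes and -0.43 across the 42 (genes of one library share its depth and composition and are not replicates). Single genes of the 42 departed from it. Rfc2 was higher in this library with 6303 exonic bases, and Ccnd1 (4709) was far lower while Gins2 (4097) was higher. Calls in the 42 genes are therefore given with and without this library where they differ.

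**Figure D1:**
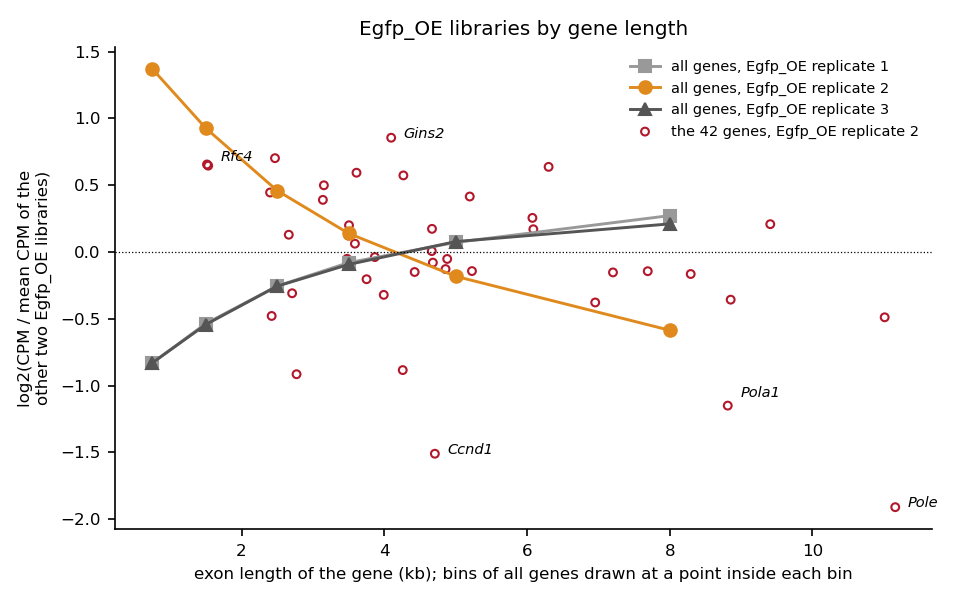
Log2 ratio of CPM in each Egfp_OE library to the mean of the other Egfp_OE libraries (y axis) against exonic gene length in kilobases (x axis). Lines join the medians of all genes in 6 length bins for the 3 libraries, and open red circles are the 42 genes in Egfp_OE replicate 2. The line of replicate 2 falls from 1.37 in the shortest bin to -0.59 in the longest, and Pole (-1.91), Ccnd1 (-1.51) and Pola1 (-1.15) lie lowest among the circles.

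Promoters of replication genes are known for E2F sites, so promoter windows were read from RefSeq (GRCm38.p6), from 250 bases before to 50 bases after each start; 34 of the 42 genes had an entry. Entries were lacking for Mcm4, Gins1, Gins2, Rfc2, Pole, Ccnd1, Ccnd2 and Ccne2. The E2F words TTTGGCGC, TTTCGCGC, TTTCCCGC and TTTGCCGC, searched on both strands with overlaps counted, occurred in 15 of the 34 genes (44.1%) and in 2.6% of 27025 genes with a window. The word CCAAT occurred in 58.8% of the 34 and in 41.1% of all genes, and the GC box GGGCGG in 79.4% and 38.2%. The cell cycle words TTTGAA and TTCGAA, whose matches in other genes mark mitotic promoters, occurred in 20.6% and 21.7%. Windows of 6 genes are shown, as the 160 bases before the start with E2F words in capitals, to set 3 genes that fell in Kitl_OE (Cdc6, Hells and Rfc3) beside 3 that were not called there (Orc1, Mcm5 and Mcm6); they were chosen after their values were seen. They lie at chr11:98907991-98908150 (plus strand), chr19:38930830-38930989 (plus strand), chr5:151651209-151651368 (minus strand), chr4:108579294-108579453 (plus strand), chr8:75109349-75109508 (plus strand) and chr1:128359706-128359865 (minus strand) and are printed 5′ to 3′ on the strand of the gene.
Cdc6: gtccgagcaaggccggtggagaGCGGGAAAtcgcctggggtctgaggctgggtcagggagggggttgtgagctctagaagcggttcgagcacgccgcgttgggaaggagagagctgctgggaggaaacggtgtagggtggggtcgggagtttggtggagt
Hells: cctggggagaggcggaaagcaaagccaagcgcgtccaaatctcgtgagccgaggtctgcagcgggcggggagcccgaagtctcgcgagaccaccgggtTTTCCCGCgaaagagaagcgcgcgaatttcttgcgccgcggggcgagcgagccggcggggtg
Rfc3: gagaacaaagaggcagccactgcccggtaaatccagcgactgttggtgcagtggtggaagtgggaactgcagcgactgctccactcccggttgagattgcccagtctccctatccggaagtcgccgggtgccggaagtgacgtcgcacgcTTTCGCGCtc
Orc1: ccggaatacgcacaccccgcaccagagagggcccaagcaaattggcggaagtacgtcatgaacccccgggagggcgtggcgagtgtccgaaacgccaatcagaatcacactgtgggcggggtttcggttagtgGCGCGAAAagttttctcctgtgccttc
Mcm5: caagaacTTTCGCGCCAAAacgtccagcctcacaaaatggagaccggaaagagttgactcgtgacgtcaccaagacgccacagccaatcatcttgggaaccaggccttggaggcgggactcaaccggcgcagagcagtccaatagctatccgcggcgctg
Mcm6: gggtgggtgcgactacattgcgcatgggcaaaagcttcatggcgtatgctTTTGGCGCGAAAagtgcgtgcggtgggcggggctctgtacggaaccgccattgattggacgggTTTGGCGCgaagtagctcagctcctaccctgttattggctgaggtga
Mcm6 held 3 such words and Mcm5 2 that overlap, and neither gene was called in any comparison. In the full windows Rfc3 and Mcm3, both lower in Kitl_OE, and Mcm7, not called, held 2 words each. The second word of Rfc3 begins at the start itself and so lies outside the printed stretch. An E2F word was present in 6 of the 14 genes with a window that fell in Kitl_OE (42.9%) and in 9 of the 19 that were not called (47.4%). A match is a description of the letters, and a window without one says nothing about the factor.

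With Kitl overexpressed, part of the replication set fell while 2 genes rose. In Kitl_OE against Egfp_OE, 16 of the 42 genes were lower and 2 were higher at an adjusted p under 0.05 (edgeR's quasi-likelihood test, adjusted over all genes tested), which is 42.9% of the set; over all genes 34.3% were called. Lower genes made up 38.1% of the set and 18.9% of all genes, and higher genes 4.76% and 15.4%. The median log2 fold change of the 42 was -0.41, against -0.07 over all genes tested, and 33 of the 42 were below 0. Kitl_OE and Egfp_OE libraries were fully separate for 25 of the 42 (59.5%; all genes, 50.5%), 22 of them lower in Kitl_OE; beside the 18 called genes these were Mcm4, Mcm6, Gins1, Gins3, Prim1, Ccne1 and E2f2. By role, lower genes were 2 of 10 in origin licensing (and 1 higher), 2 of 5 in helicase activation, 4 of 5 in the clamp and its loader, 2 of 5 in the polymerases and primase, 1 of 2 in Okazaki fragment maturation, 2 of 4 in nucleotide supply, 2 of 5 in chromatin assembly, 1 of 4 G1 cyclins (and 1 higher) and 0 of 2 E2F activators. The lowest role median was that of the clamp and its loader (log2 -0.72) and the highest that of the G1 cyclins (0.39). In bulk RNA, fewer cells in S phase and less RNA per cell cannot be told apart.

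**Figure D2:**
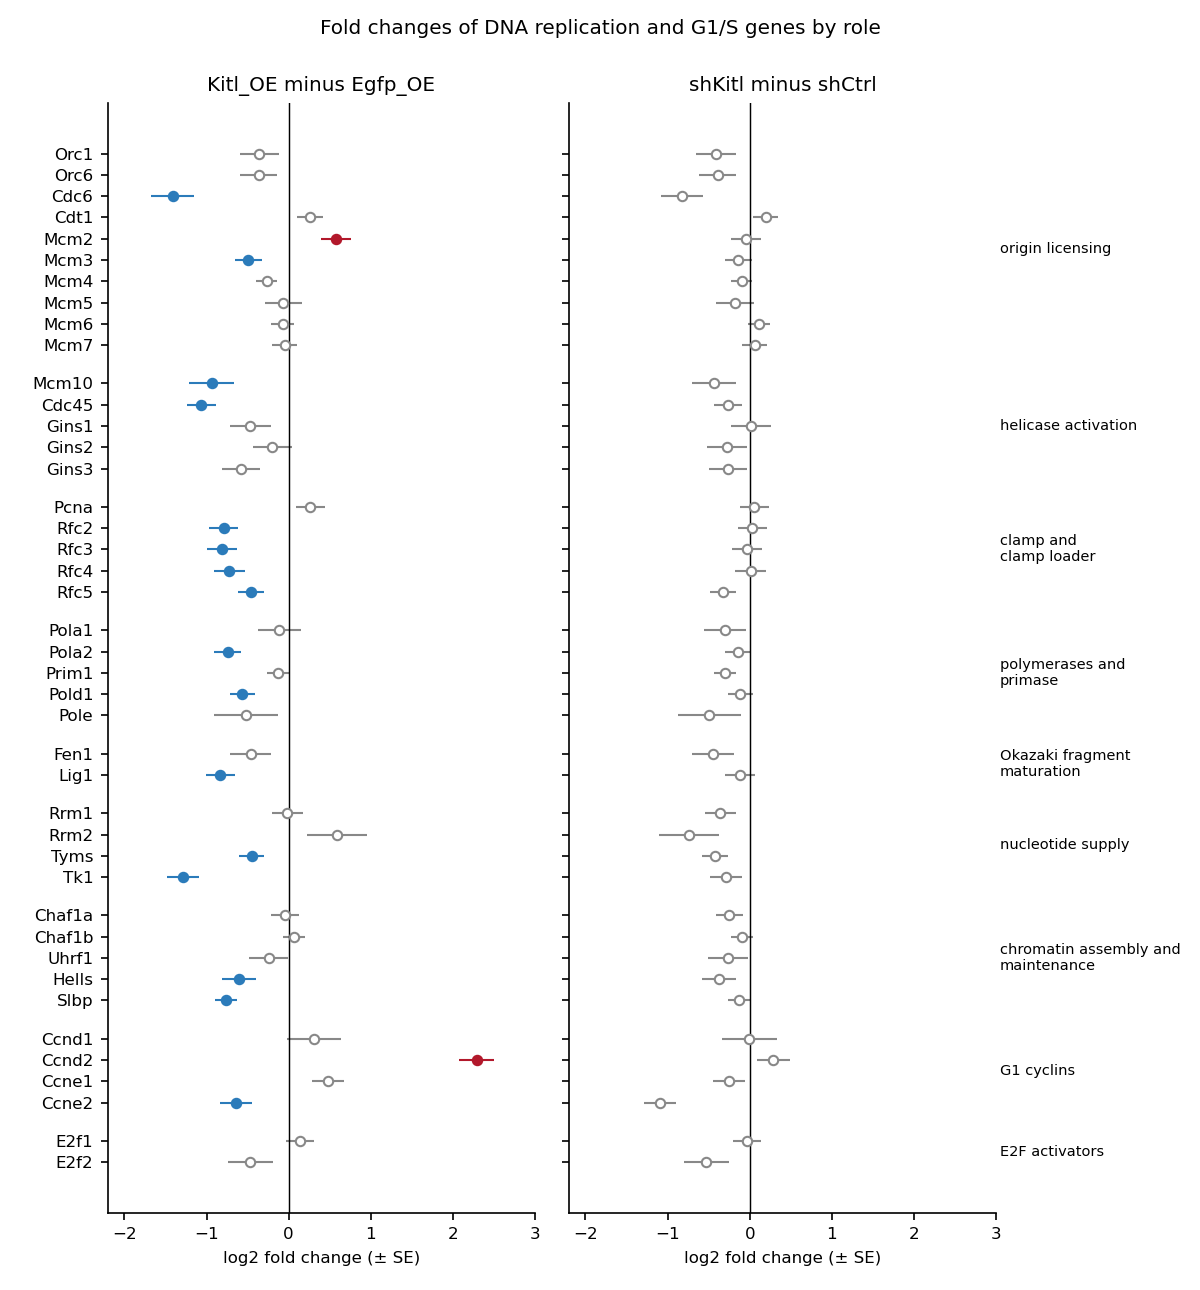
Log2 fold change (x axis, with its standard error) of each of the 42 genes, grouped by role, in Kitl_OE minus Egfp_OE (left) and shKitl minus shCtrl (right). Filled red points are higher and filled blue points lower at an adjusted p under 0.05, and open grey points were not called. On the left 16 genes are blue and 2 red (Ccnd2 at 2.29 and Mcm2 at 0.58), and on the right every point is open.

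Of the origin licensing genes, Cdc6, the loader that binds the origin recognition complex, changed most. It stood at 98.2, 96.5 and 115 CPM in Egfp_OE and 35.6, 35.6 and 45 CPM in Kitl_OE, so that no library of one group reached the other and the overexpressing cells held 37.6% of the control level (log2 -1.41, SE 0.259, adjusted p = 0.0018). Its partner Cdt1 stood at 94.1, 134 and 111 CPM in Egfp_OE and 135, 140.5 and 130.5 CPM in Kitl_OE. The groups of Cdt1 overlapped through Egfp_OE replicate 2, and it was called as higher only without that library (log2 0.42, adjusted p = 0.0356; 0.26 and 0.217 with it).

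Of the 6 subunits of the MCM2-7 ring 1 rose, 1 fell and 4 were not called. Mcm2 stood at 355, 282 and 379 CPM in Egfp_OE and 512, 522 and 482 CPM in Kitl_OE, all Kitl_OE libraries being the higher ones (1.49-fold, log2 0.58, SE 0.179, adjusted p = 0.027). Without Egfp_OE replicate 2 Mcm2 was not called (log2 0.48, adjusted p = 0.052). The shCtrl libraries held 403, 507 and 512 CPM of it, each above every Egfp_OE library. Mcm3 stood at 389.6, 353 and 423 CPM in Egfp_OE and 264, 275 and 289 CPM in Kitl_OE and fell (log2 -0.49, SE 0.165, adjusted p = 0.0373). Mcm4, Mcm5, Mcm6 and Mcm7 had log2 fold changes between -0.27 and -0.05. Orc1 and Orc6, subunits of the origin recognition complex, stood at -0.36 and -0.37 on the log2 scale and were not called either. Without Egfp_OE replicate 2 they stood at -0.36 and -0.08, again not called.

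Per length, in the authors' TPM (transcript abundance scaled to a fixed library total), the lowest and highest mean levels among the 6 ring subunits differed 1.41-fold in shCtrl (Mcm6 and Mcm3), 1.24-fold in shKitl (Mcm2 and Mcm3), 2.11-fold in Egfp_OE (Mcm2 and Mcm3) and 1.54-fold in Kitl_OE (Mcm5 and Mcm4). In Egfp_OE, Mcm2 had a mean of 142.5 ± 45.4 TPM and Mcm3 of 301 ± 81 TPM (SD, n = 3). In Kitl_OE they were 209 ± 10.6 and 212 ± 20.9 TPM (SD, n = 3), a difference within the spread of the libraries.

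Among the helicase activators, Cdc45, which joins GINS and MCM2-7 in the moving helicase, stood at 93.5, 112 and 102 CPM in Egfp_OE and 45.5, 47.9 and 53.8 CPM in Kitl_OE. Every Kitl_OE library was below every Egfp_OE library (log2 -1.06, SE 0.176, adjusted p = 0.000992). Mcm10, which promotes helicase activation, stood at 67, 64.7 and 75.9 CPM in Egfp_OE and 32.1, 31 and 45.3 CPM in Kitl_OE and fell (log2 -0.94, SE 0.27, adjusted p = 0.0197). The GINS genes were not called, with log2 fold changes of -0.47 for Gins1, -0.20 for Gins2 and -0.58 for Gins3. Without Egfp_OE replicate 2 these were -0.20, 0.16 and -0.66, so that the sign of Gins2 turned, and none was called.

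Rfc2, Rfc3, Rfc4 and Rfc5 encode the small subunits of replication factor C, and all 4 fell, with every Kitl_OE library below every Egfp_OE library. Rfc2 stood at 101, 161 and 106 CPM in Egfp_OE and 70.4, 75 and 67.4 CPM in Kitl_OE (log2 -0.79, SE 0.176, adjusted p = 0.00553). Rfc3 stood at 62.4, 97.7 and 67.2 CPM in Egfp_OE and 41.3, 42.4 and 45.7 CPM in Kitl_OE (log2 -0.81, SE 0.185, adjusted p = 0.00613), and Rfc4 at 42.9, 67 and 42.7 CPM in Egfp_OE and 32.5, 29.1 and 31 CPM in Kitl_OE (log2 -0.72, SE 0.192, adjusted p = 0.0135). In each of these 3 genes Egfp_OE replicate 2 was the highest library; without it the log2 fold changes were -0.53, -0.57 and -0.46 (adjusted p = 0.00333, 0.0102 and 0.0277). Rfc5 had the smallest change of the 4 (log2 -0.46, adjusted p = 0.0407) and was not called without that library (log2 -0.39, adjusted p = 0.0766). Pcna, the clamp itself, stood at 362, 504 and 378 CPM in Egfp_OE and 492, 517 and 487 CPM in Kitl_OE, where the groups overlapped only through Egfp_OE replicate 2. It was not called (log2 0.27, adjusted p = 0.276; without that library 0.44 and 0.0572), and per length it was the most abundant of the 42 in every group, at 409 ± 39.9 TPM in shCtrl, 412 ± 59.2 in shKitl, 486 ± 34.4 in Egfp_OE and 598 ± 39.5 in Kitl_OE (SD, n = 3 each).

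Of the polymerase genes, Pola2, the accessory subunit of polymerase alpha, stood at 104, 99.3 and 119 CPM in Egfp_OE and 61, 65.2 and 66 CPM in Kitl_OE and fell (log2 -0.74, SE 0.165, adjusted p = 0.00532). Pold1, the catalytic subunit of polymerase delta, stood at 116.5, 124 and 154 CPM in Egfp_OE and 84.8, 92.9 and 89 CPM in Kitl_OE and fell as well (log2 -0.56, SE 0.15, adjusted p = 0.0134). Prim1, the catalytic primase subunit, had the smallest spread of the role in Egfp_OE and was not called (log2 -0.12, adjusted p = 0.504). Pole and Pola1, the longest transcripts among the polymerase genes here, depended most on Egfp_OE replicate 2. Kitl_OE held 68.95, 66.05 and 72.4 CPM of Pole, below the 126 and 136 CPM of Egfp_OE replicates 1 and 3 and above the 34.8 CPM of replicate 2. Pole was not called with that library (log2 -0.52, adjusted p = 0.328) and was lower without it (log2 -0.91, adjusted p = 0.00627), while Pola1 moved from -0.11 to -0.39 and was not called in either (adjusted p = 0.763 and 0.0704).

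Behind the fork, Lig1, the ligase that joins Okazaki fragments, stood at 209.6, 327 and 229.8 CPM in Egfp_OE and 149, 148 and 134 CPM in Kitl_OE and fell (log2 -0.83, SE 0.18, adjusted p = 0.00483). Fen1, the nuclease that trims their flaps, stood at 17.8, 14.3 and 22 CPM in Egfp_OE and 12.6, 11.8 and 14.95 CPM in Kitl_OE and was not called (log2 -0.46, adjusted p = 0.179).

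Nucleotide supply split by enzyme. Tk1, the thymidine kinase of the salvage pathway, stood at 142, 209.8 and 172 CPM in Egfp_OE and 65.2, 70.7 and 79 CPM in Kitl_OE. Its highest Kitl_OE library lay below its lowest Egfp_OE library, and the overexpressing cells held 41% of the control level (log2 -1.29, SE 0.195, adjusted p = 0.000575). Tyms, which makes thymidylate de novo, fell less (log2 -0.45, adjusted p = 0.0419) and was not called without Egfp_OE replicate 2 (log2 -0.38, adjusted p = 0.0805). Of the ribonucleotide reductase genes, Rrm1, the large subunit, was not called (log2 -0.02). Rrm2, the regulatory subunit, stood at 110.4, 55.1 and 97.3 CPM in Egfp_OE and 113, 110.2 and 172 CPM in Kitl_OE, with overlapping groups and 1 high Kitl_OE library (log2 0.59, SE 0.363, adjusted p = 0.23).

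Among the chromatin genes, Slbp, whose product binds the stem-loop of histone mRNAs, stood at 149, 183 and 157.5 CPM in Egfp_OE and 93.7, 96.2 and 98.5 CPM in Kitl_OE. The 3 Kitl_OE libraries lay within a few CPM of each other and well below the controls (log2 -0.76, SE 0.134, adjusted p = 0.00137). Hells, a chromatin remodeller that aids DNA methylation, stood at 161, 142 and 155 CPM in Egfp_OE and 95.55, 97.4 and 108 CPM in Kitl_OE and fell (log2 -0.61, SE 0.205, adjusted p = 0.0393). The histone chaperone genes Chaf1a (-0.05) and Chaf1b (0.06) and the methylation cofactor gene Uhrf1 (-0.24) were not called on the log2 scale.

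Of the 4 G1 cyclins 1 rose, 1 fell and 2 were not called. Ccnd2 (ENSMUSG00000000184, minus strand of chromosome 6 at 127125162 to 127152193, GRCm38) encodes cyclin D2 and stood at 115, 146 and 139 CPM in Egfp_OE and 640.3, 596.5 and 717.5 CPM in Kitl_OE. Each Kitl_OE library was several times above each Egfp_OE library (4.89-fold; log2 2.29, SE 0.209, adjusted p = 2.35e-05). Egfp_OE was also the lowest of the 4 groups for this gene: shCtrl held 300.1, 241 and 212 CPM and shKitl 391.5, 265 and 264 CPM, so that the Kitl_OE libraries were above all other libraries. Ccne2, encoding cyclin E2, stood at 53.7, 59.1 and 54.9 CPM in Egfp_OE and 36, 31.75 and 39.7 CPM in Kitl_OE and fell (log2 -0.64, SE 0.193, adjusted p = 0.024). Its paralogue Ccne1 stood at 52.4, 58.8 and 55.2 CPM in Egfp_OE and 77.6, 71.7 and 83.2 CPM in Kitl_OE, with no overlap between the groups, but was not called (log2 0.48, adjusted p = 0.076). Ccnd1, encoding cyclin D1, stood at 347, 147 and 487 CPM in Egfp_OE and 384, 418 and 409 CPM in Kitl_OE. Its control libraries spanned a wide range, and the sign of its log2 fold change turned with Egfp_OE replicate 2 (0.30 with it and -0.03 without it, not called in either).

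The E2F activators were not called. E2f1 stood at 110, 162 and 119 CPM in Egfp_OE and 147.5, 142 and 141 CPM in Kitl_OE (log2 0.14, adjusted p = 0.561). Its groups overlapped only through Egfp_OE replicate 2, and without that library it was again not called (log2 0.34, adjusted p = 0.0812). E2f2 stood at 6.98, 8.09 and 9.79 CPM in Egfp_OE and 4.67, 6.41 and 6.86 CPM in Kitl_OE (log2 -0.47, adjusted p = 0.206) and was per length the least abundant of the 42 in every group, between 3.55 and 5.43 TPM.

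**Figure D3:**
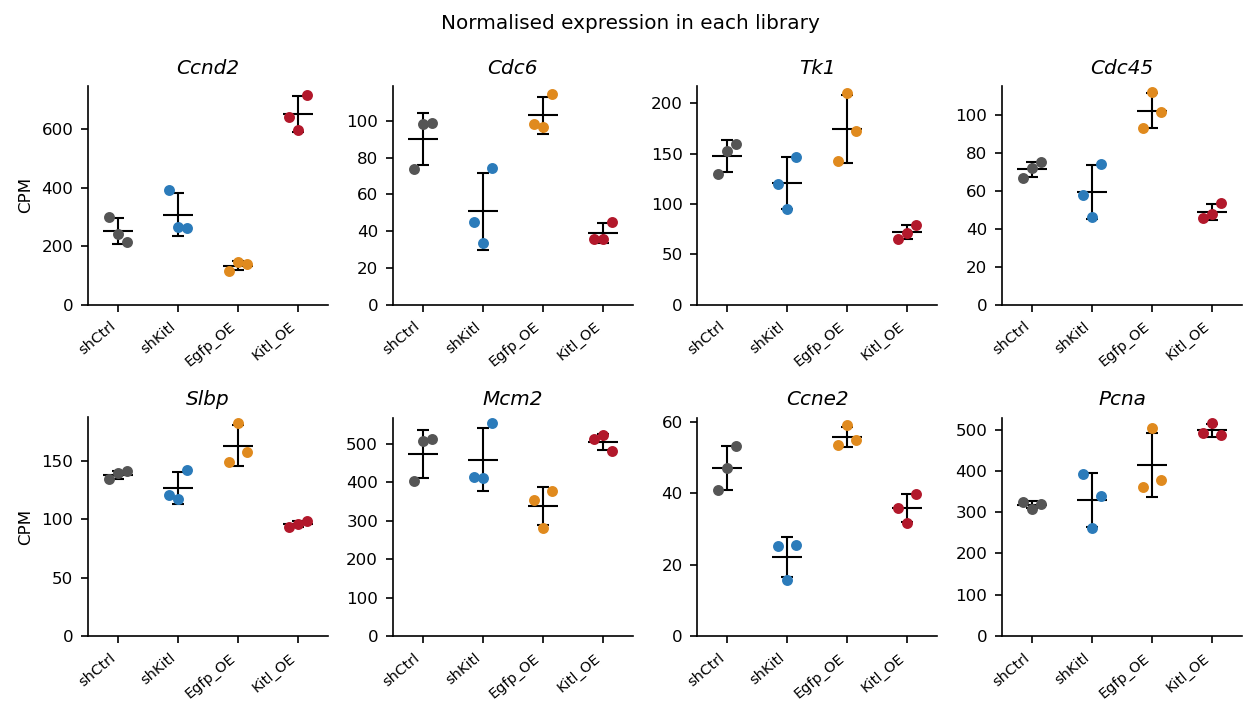
CPM (y axis, from 0) of 8 genes in each library of the 4 groups (x axis). Points are libraries, in order of replicate number from left to right, and bars give the mean ± SD of 3. Ccnd2 is highest in the 3 Kitl_OE libraries (597 to 717.5), Cdc6, Tk1, Cdc45 and Slbp lie below Egfp_OE there without overlap, and the lowest mean of Ccne2 is that of shKitl.

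Leaving out each of the 12 libraries in turn, 9 of the 18 calls of the overexpression comparison were made every time: Ccnd2 as higher, and Cdc6, Cdc45, Rfc2, Rfc3, Pola2, Lig1, Tk1 and Slbp as lower. All 18 kept their direction. Mcm2 lost its call without Egfp_OE replicate 2 or any Kitl_OE replicate, Ccne2 without shCtrl replicate 2 or any Kitl_OE replicate, Mcm10 without Egfp_OE replicate 3 or Kitl_OE replicate 1 or 2, Rfc4 without Kitl_OE replicate 2 or 3, and Pold1 without Egfp_OE replicate 3 or Kitl_OE replicate 1 or 3. Mcm3 and Hells lost it without shCtrl replicate 2 or 3, shKitl replicate 1, Egfp_OE replicate 1 or 3 or any Kitl_OE replicate, and Rfc5 and Tyms also without Egfp_OE replicate 2. Without Egfp_OE replicate 2, the set held 2 higher and 15 lower genes, 15 of them among the 18; of all genes 39.4% were called, 19.8% higher and 19.6% lower. Scaling by spike-in totals left 1 call in the set, Ccnd2, with all libraries, where 15.4% of all genes were called (6.95% higher and 8.45% lower). Once Egfp_OE replicate 2, the library rich in spike-ins, was left out, that scaling gave 16 calls (15 lower, Ccnd2 higher), where 28.8% of all genes were called (7.97% higher and 20.8% lower).

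Lists of other cell cycle genes were read beside the 42. Of 35 other genes of the replication machinery 10 were lower and 0 higher in Kitl_OE (28.6%; of all genes 18.9% were lower and 15.4% higher), with a median log2 fold change of -0.40. Among the largest changes were those of Tipin, of the fork protection complex (log2 -1.36, SE 0.25, adjusted p = 0.00182), Dnmt1, the maintenance DNA methyltransferase (log2 -1.25, SE 0.23, adjusted p = 0.00182), and Gmnn, the inhibitor of Cdt1 (log2 -1.19, SE 0.273, adjusted p = 0.0065). Egfp_OE replicate 2 was far the highest Egfp_OE library for Tipin (88.8, 173 and 83.25 CPM) and Gmnn (58.9, 126.8 and 58.7 CPM). For Dnmt1 it was the lowest (528.9, 302.5 and 599.7 CPM). Without Egfp_OE replicate 2 the list held 14 lower genes and 1 higher (all genes, 19.6% and 19.8%). Of 24 mitosis genes 5 were lower and 0 higher (20.8%, near the 18.9% of all genes that were lower; median -0.23), namely Birc5 (-1.73), Ttk (-1.56), Ccnb2 (-1.48), Kif23 (-0.92) and Top2a (-0.92); without that library 8 were lower.

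Regulators of the G1 to S transition were mixed. Of 17 genes of the retinoblastoma and E2F families and their partners, Rbl2 (log2 0.89, SE 0.261, adjusted p = 0.0215) and Tfdp2 (0.63) were higher, and Lin9 (-0.99), Myc (-0.79) and E2f3 (-0.51) were lower. These made up 29.4% of the list, where 34.3% of all genes were called. Of 9 genes of G1 kinases and their activators, Ccnd3 (log2 0.80, SE 0.129, adjusted p = 0.000811) and Cdk2 (0.36) were higher, and Cks1b (log2 -1.84, SE 0.341, adjusted p = 0.00188), Ccna2 (-1.21) and Cdc25a (-0.70) were lower. The called genes were 55.6% of this short list (22.2% higher and 33.3% lower, against 15.4% and 18.9% of all genes). Cdk4 and Cdk6, the partners of the D-type cyclins, were not called (log2 -0.13 and -0.10).

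Of the 7 inhibitors of cyclin-dependent kinases 3 were called, 2 higher and 1 lower (42.9%, near the 34.3% of all genes that were called). Cdkn1a, encoding p21, stood at 176, 283 and 161 CPM in Egfp_OE and 764, 796 and 593 CPM in Kitl_OE and rose, with no overlap (log2 1.79, SE 0.505, adjusted p = 0.0176). Cdkn2b, encoding p15, stood at 27.7, 51.85 and 20.2 CPM in Egfp_OE and 91.2, 102 and 61.1 CPM in Kitl_OE and rose (log2 1.35, SE 0.481, adjusted p = 0.0477). Cdkn1c, encoding p57, stood at 27.7, 212 and 28.95 CPM in Egfp_OE and 1.48, 1.1 and 0.819 CPM in Kitl_OE and fell (log2 -6.30, SE 1.01, adjusted p = 0.0008); Egfp_OE replicate 2 was again far from the other Egfp_OE libraries. Cdkn1b (0.40), Cdkn2a (-1.24, adjusted p = 0.0615), Cdkn2c (0.19) and Cdkn2d (-0.27) were not called.

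Markers of cell state differed between the same groups. The 10 stellate and fibroblast markers summed to 5040 to 6560 CPM in Egfp_OE and to 20700 to 24000 CPM in Kitl_OE, 4 of them higher and 3 lower, Acta2 (4.22) and Pdgfra (-3.68) changing most in each direction. That was 40% higher and 30% lower, where 15.4% and 18.9% of all genes were. Mesothelial markers, 6 of 9 of them past the filter and all 6 higher (all genes, 15.4%), summed to 16.5 to 31.1 CPM in Egfp_OE and to 377 to 630 CPM in Kitl_OE, while the mesothelial genes Muc16, Lrrn4 and Wt1 did not pass the filter. Of the endothelial, epithelial and blood cell markers past the filter, Kdr was higher (log2 2.69), Vwf (-1.89) and Cela1 (-1.78) were lower, and Tek, Krt19 and Cd68 were not called. The part of these differences in the fold changes of the replication genes was not tested.

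In the knockdown comparison (shKitl against shCtrl) 0 of the 42 genes were called; over all genes 0% were called by edgeR's quasi-likelihood test, and Kitl itself was not (log2 -1.47, adjusted p = 0.121), so that the count says little of the set. DESeq2 called 1 of the 42 (Ccne2, lower), where it called 2.8% of all genes (0.745% lower), and limma-voom called 0 of the 42 and 0% of all genes. At an unadjusted p under 0.05 stood 4 of the 42 (Cdc6, Prim1, Tyms and Ccne2), all 4 lower in shKitl; of all genes 15.8% did. Values of shKitl and shCtrl were fully separate for 2 of the 42 (4.76%; all genes, 19.7%), Ccne2 and Tyms. The median log2 fold change of the 42 was -0.25, against 0.05 over all genes, and 34 were below 0. Of the 35 other replication genes and the 24 mitosis genes 0 were called in this comparison; their medians were -0.20 and -0.40, and all 24 mitosis genes were below 0.

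Ccne2 came nearest to a call. It stood at 41, 47.15 and 53.4 CPM in shCtrl and 25.2, 15.75 and 25.4 CPM in shKitl, so that its highest knockdown library lay well below its lowest control library and shKitl held 46.9% of the control level (log2 -1.09, SE 0.195, adjusted p = 0.121). It was called without shCtrl replicate 1 (adjusted p = 0.0498; all genes, 0.525% called, 0.109% lower), without shKitl replicate 3 (0.0321; all genes, 1.76% called, 0.325% lower), without Egfp_OE replicate 2 (0.0447; all genes, 0.518% called, 0.218% higher and 0.301% lower) and by DESeq2 (0.000347). Cdc6 stood at 74, 98.1 and 98.8 CPM in shCtrl and 44.8, 33.4 and 74.2 CPM in shKitl. Its groups met at 74.0 CPM in shCtrl replicate 1 and 74.2 CPM in shKitl replicate 3, and it was called only without the latter (log2 -0.83 and adjusted p = 0.221 with all libraries; -1.22 and 0.0289 without it). Tyms stood at 91.6, 102 and 117 CPM in shCtrl and 78.8, 65.05 and 87.65 CPM in shKitl (log2 -0.42, adjusted p = 0.251).

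Further genes of each role overlapped between shCtrl and shKitl and were not called. Mcm2 stood at 403, 507 and 512 CPM in shCtrl and 413, 410.3 and 555 CPM in shKitl (log2 -0.04). Pcna stood at 326, 308 and 321 CPM in shCtrl and 392, 262 and 338 CPM in shKitl (log2 0.05). Rrm2 stood at 153, 262 and 293 CPM in shCtrl and 146, 81.2 and 197 CPM in shKitl (log2 -0.74). In each of these 3 genes shKitl replicate 2 was the lowest library of its group, and for Pcna and Rrm2 the lowest of all 6. Slbp stood at 134, 139.5 and 141 CPM in shCtrl and 120.5, 117 and 142 CPM in shKitl (log2 -0.13). Cdt1 stood at 118, 119.6 and 124 CPM in shCtrl and 134.5, 122 and 158 CPM in shKitl (log2 0.19). Among the cyclins, Ccne1 stood at 53.4, 56.6 and 54.8 CPM in shCtrl and 53.45, 30.55 and 53.9 CPM in shKitl (log2 -0.26), shKitl replicate 2 being the one low library. Ccnd1 stood at 324, 353 and 347 CPM in shCtrl and 408, 259 and 354.5 CPM in shKitl, a log2 fold change of -0.003. Ccnd2, given above, had a log2 fold change of 0.29, and E2f1 stood at 109, 124 and 122 CPM in shCtrl and 124, 97.2 and 125 CPM in shKitl (log2 -0.04).

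The 11 other genes with the largest calls under overexpression also overlapped between shCtrl and shKitl and were not called. Of the helicase genes, Mcm3 stood at 303, 352 and 364 CPM in shCtrl and 295, 256 and 373 CPM in shKitl (log2 -0.14). Cdc45 stood at 67.1, 72.2 and 75.2 CPM in shCtrl and 57.8, 46.3 and 74.55 CPM in shKitl (log2 -0.26). Mcm10 stood at 61.8, 79.8 and 82.55 CPM in shCtrl and 50.9, 35.1 and 80.3 CPM in shKitl (log2 -0.43). In these 3 genes shKitl replicates 1 and 2 were below every shCtrl library and replicate 3 was not. Of the clamp loader genes, Rfc2 stood at 100.1, 98.2 and 103.5 CPM in shCtrl and 95.4, 101.5 and 112 CPM in shKitl (log2 0.03). Rfc3 stood at 54.2, 60.3 and 59.8 CPM in shCtrl and 55.8, 48.5 and 65.7 CPM in shKitl (log2 -0.04). Rfc4 stood at 32, 34 and 36.7 CPM in shCtrl and 36.9, 29 and 37.8 CPM in shKitl (log2 0.01). These loader genes lay close to their controls, with log2 fold changes between -0.04 and 0.03. Of the polymerase genes and the ligase, Pola2 stood at 92.9, 112 and 114 CPM in shCtrl and 90.03, 80.5 and 118 CPM in shKitl (log2 -0.14). Pold1 stood at 112, 117 and 107.5 CPM in shCtrl and 97.1, 94.2 and 120 CPM in shKitl (log2 -0.11). Lig1 stood at 186, 197 and 187 CPM in shCtrl and 163, 157 and 205 CPM in shKitl (log2 -0.12). In all 3 genes shKitl replicate 3 was above every shCtrl library and the other shKitl libraries were below. Tk1 stood at 129.6, 153 and 159.5 CPM in shCtrl and 120.1, 95.35 and 147 CPM in shKitl (log2 -0.29). Hells stood at 157, 197 and 226 CPM in shCtrl and 134, 114 and 199 CPM in shKitl (log2 -0.37), and in both genes shKitl replicate 3 alone reached into the shCtrl range.

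The knockdown libraries differed among themselves in the whole set. Of the 42 genes, shKitl replicate 2 was the lowest of its group in 37 and shKitl replicate 3 the highest in 38. Their median log2 difference from the other shKitl libraries was -0.41 and 0.40 over the 42 genes, and 0.01 and -0.01 over all genes. In shCtrl, replicate 1 was the lowest in 33 and replicate 3 the highest in 30, with medians of -0.23 and 0.15. Differences in shKitl replicates 1 to 3 correlated with log2 exonic length at -0.33, 0.20 and 0.06 across 10488 genes. Across the 42 the values were -0.33, 0.33 and 0.01, and the part of length was not tested. The labels give P14 for both shKitl replicate 2 and shCtrl replicate 1 and P15 for shKitl replicate 3 and shCtrl replicate 2, and over these 4 libraries the median log2 fold change of the 42 was -0.20. Across genes, deviations from the group means correlated at 0.56 between the P14 libraries and at 0.32 between the P15 libraries (as a description; genes are not replicates); the overexpression groups, which share P18 and P19, gave -0.002 and -0.18. The summed CPM of the 24 mitosis genes moved alongside, at 2660, 2210 and 3730 in shKitl replicates 1 to 3 and 3590, 4170 and 4370 in shCtrl. The sum of the stellate and fibroblast markers ran the other way within shKitl, at 9440, 18200 and 7520 CPM, and within shCtrl at 7180, 5920 and 5530 CPM. The mesothelial markers summed to 76.4 to 103 CPM in shCtrl and 109 to 189 CPM in shKitl, and the part of these lists was not tested. Without shKitl replicate 2 the median log2 fold change of the 42 was -0.09, without shKitl replicate 3 it was -0.40, and in the fit with the P number as a covariate it was -0.15.

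**Figure D4:**
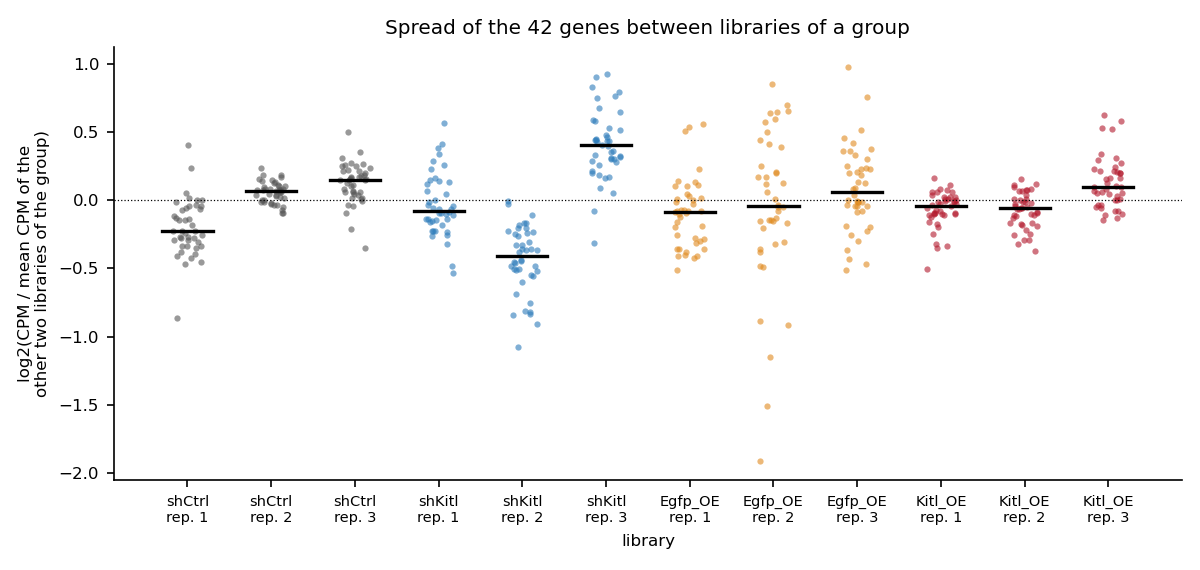
Log2 ratio of CPM in each library to the mean of the other libraries of its group (y axis) for the 42 genes (points), with the median of the 42 as a bar, in the 12 libraries (x axis). Nearly the whole set lies below 0 in shKitl replicate 2 (median -0.41) and above 0 in shKitl replicate 3 (median 0.40), and the points of Egfp_OE replicate 2 spread most widely around a median of -0.04.

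The comparisons share no library, and 28 of the 42 genes (66.7%) were below 0 in both, against 29% of all genes tested; 11 of the 42 (26.2%) had opposite signs, against 41.2%. With 81% of the 42 below 0 in the knockdown and 78.6% in the overexpression, this is a description of both sets of values. With all libraries no gene of the 42 was called in both, and without Egfp_OE replicate 2 Ccne2 was lower in both (log2 -1.11 and adjusted p = 0.0447 in the knockdown, -0.58 and 0.0496 with overexpression). The Pearson correlation of the log2 fold changes was 0.39 across the 42 genes and 0.22 across all genes (genes share libraries and are not replicates). Tested as the difference of the fold changes (overexpression minus knockdown), 4 of the 42 (9.52%) were called, where 14% of all genes were. The 4 were 1 higher (2.38%; all genes, 4.07%) and 3 lower (7.14%; all genes, 9.88%), so that the set stood no further out than genes at large. The call of Ccnd2 was positive (log2 2.00, SE 0.285, adjusted p = 0.00103), as it rose with overexpression (2.29) and was at 0.29 in the knockdown. Tk1 (log2 -0.9998, SE 0.272, adjusted p = 0.0316), Slbp (log2 -0.63, SE 0.189, adjusted p = 0.0444) and Rfc2 (log2 -0.82, SE 0.248, adjusted p = 0.0473) had negative differences, being lower with overexpression and at -0.29, -0.13 and 0.03 in the knockdown; these 3 calls were made in 2, 2 and 3 of the 12 fits that leave out 1 library, and that of Ccnd2 in all 12. Without Egfp_OE replicate 2, 1 gene of the 42 was higher and 2 lower in this test (all genes, 7.11% and 11.1%, together 18.2%).

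The control derivatives were compared to see how far the lines differ without altered Kitl. In Egfp_OE against shCtrl, libraries that the other comparisons use too, 1 of the 42 genes was called (2.38%; 1.25% of all genes, 0.511% higher and 0.74% lower): Chaf1b, a subunit of chromatin assembly factor 1, at 98.9, 87.3 and 80.35 CPM in shCtrl and 138, 134 and 145 CPM in Egfp_OE (log2 0.65, SE 0.135, adjusted p = 0.0453). The Egfp_OE libraries were all higher, but the call was made in only 2 of the 12 fits that leave out 1 library, those without shCtrl replicate 1 or Egfp_OE replicate 2. Values of the groups were fully separate for 17 of the 42 (40.5%, against 28.5% of all genes), 9 higher and 8 lower in Egfp_OE. Higher ones included Cdc45, Rfc3, Rfc4, Lig1, Slbp and Ccne2, which were called lower in Kitl_OE than in Egfp_OE. Lower ones included Mcm2 and Ccnd2, which were called higher in Kitl_OE. The rest were not called with overexpression. Mean CPM in shCtrl, Egfp_OE and Kitl_OE was 34.25, 50.9 and 30.85 for Rfc4 and 71.5, 102.5 and 49.1 for Cdc45. Ccnd2 was lower in every Egfp_OE library than in any shCtrl library but missed the threshold (log2 -0.91, SE 0.201, adjusted p = 0.0517), and was called as lower without Egfp_OE replicate 2 (log2 -0.99, adjusted p = 0.0477). Without that library Chaf1b and Ccnd2 were the called genes of the 42, where 2.15% of all genes were called, 1.17% higher and 0.986% lower. Rrm2 stood at 153, 262 and 293 CPM in shCtrl and 110.4, 55.1 and 97.3 CPM in Egfp_OE, without overlap (log2 -1.43, SE 0.368, adjusted p = 0.0706).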

How the data were processed

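Raw counts per gene and TPM values (transcript abundance, scaled per length to a fixed total) were deposited by the authors. Per the submitters' processing notes, reads were handled with STAR 2.5.2b, featureCounts of Subread 1.5.2 and DESeq2 on GRCm38; the sources used here give neither the strand setting nor the gene models. The deposited counts were fitted with edgeR 4.0.16 (quasi-likelihood test, robust, TMM factors, filter on low counts by group) over all 12 libraries and 15271 genes, with 92 spike-in rows left out; the common biological coefficient of variation was 0.292. A gene was called at a Benjamini-Hochberg adjusted p under 0.05 over all genes tested. DESeq2 1.42.0, limma 3.58.1 on the counts or on log2 of the deposited TPM plus 1 or 0.1, other scalings, filters and left-out libraries served as alternatives. The test was checked on counts simulated with a biological coefficient of variation of 0.1. That is below the 0.292 of the data, so the check says little of the test's error rates here.

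The 42 genes and all lists were chosen with earlier results of these data known. Values in every library are given for Kitl, E2f1, Ccnd1, Ccnd2, Ccne1, Ccne2, Cdc6, Cdt1, Mcm2, Pcna, Rrm2, Slbp and the 16 called genes with the largest fold changes; of each list up to 4 called genes were to be named, and all inhibitors. E2f2, Fen1, Pole, Pola1, Gins2, Tyms and Chaf1b were given in more detail, and Top2a, E2f3, Cdk2, Cdk4 and Cdk6 were named, after their values were seen. Exon lengths and coordinates came from GENCODE M21 (GRCm38), promoters from RefSeq (GRCm38.p6).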

Additional observations from a re-analysis of the deposited data

Results flagged for a closer look

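For 4 of the 42 genes the overexpression and knockdown fold changes differed in the test of the difference itself (edgeR's quasi-likelihood test, overexpression minus knockdown, 3 libraries a group), 9.52% of the set where 14% of all genes differed. Ccnd2 differed by 2.00 on the log2 scale (2.29 with overexpression and 0.29 in the knockdown, adjusted p = 0.00103), and its libraries were higher in 3 of 3 Kitl_OE libraries than in any of Egfp_OE. Tk1 differed by -0.9998 (-1.29 and -0.29, adjusted p = 0.0316), Slbp by -0.63 (-0.76 and -0.13, adjusted p = 0.0444) and Rfc2 by -0.82 (-0.79 and 0.03, adjusted p = 0.0473). Each was lower in 3 of 3 Kitl_OE libraries than in any of Egfp_OE, which bears on the overexpression change alone. Of the 4 calls only that of Ccnd2 was made in every fit that leaves out 1 library. Without Egfp_OE replicate 2 the differences were 2.11 for Ccnd2 (adjusted p = 0.00111), -0.82 for Tk1 (0.0508), -0.51 for Slbp (0.0462) and -0.54 for Rfc2 (0.0267).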

How the results depend on the processing

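Counts of the 42 genes called depended on some choices, and the cause was not tested. The share of all genes called moved too. In the overexpression comparison it was 34.3% in the main fit, 15.4% with spike-in totals and 39.4% without Egfp_OE replicate 2. Counts given below without such a share therefore do not set the 42 against genes at large. In the knockdown comparison (0) DESeq2 called 1, and leaving out 1 library gave 0 to 2: 1 without shCtrl replicate 1 or Egfp_OE replicate 2 and 2 without shKitl replicate 3. In the overexpression comparison (18) scaling by spike-in totals left 1, testing every gene with a count 11, an adjusted p under 0.01 9 and libraries with shared P numbers 4. Leaving out 1 library gave 10 to 19, with 10 without Kitl_OE replicate 1 or 2 and 11 without replicate 3. In the test of the difference (4) 2 were called with DESeq2 size factors, 8 with library totals, and 1 each with spike-in totals, log2 TPM with either pseudocount, every gene with a count, an adjusted p under 0.01, and spike-in totals without Egfp_OE replicate 2, an alternative added after seeing the data. Leaving out 1 library gave 1 to 5 there; Ccnd2 was called each time. Between the control lines (1) 2 were called with DESeq2 size factors, limma-voom or a CPM of at least 5 in 3 libraries and 3 by DESeq2. There 0 were called with library totals, spike-in totals (with or without Egfp_OE replicate 2), log2 TPM with either pseudocount, an adjusted p under 0.01, the P number as covariate or only the groups compared, and leaving out 1 library gave 0 to 2.

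Deviations from the group means in same-numbered libraries correlated at 0.15, -0.26 and 0.53 between shCtrl and shKitl and at 0.03, 0.20 and 0.17 between the overexpression groups. Libraries with the same P number correlated at 0.56 and 0.32 between shCtrl and shKitl and at -0.002 and -0.18 between the overexpression groups. Pairs sharing neither number ran from -0.61 to -0.11 and from -0.17 to 0.11. Deviations within a group are tied to each other, so these correlations cannot settle whether the samples are paired. With the replicate number as a block, 0, 19, 2 and 0 of the 42 were called in the knockdown, overexpression, difference and control line comparisons. Scaling moved the median of all genes in the overexpression comparison from -0.07 to -0.15 with library totals. With spike-in totals without Egfp_OE replicate 2 it was -0.29.

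Genes with log2 fold changes near 0 changed sign. In the knockdown Ccnd1 was at 0.0209 with library totals and 0.0689 with the P covariate, and from -0.161 to 0.161 with 1 library left out. E2f1 ranged from -0.102 to 0.0749 with 1 library left out, and Ccnd2 was at -0.0674 over shared P numbers. Mcm2 was at 0.0509 with the P covariate and 0.0584 over shared P numbers, and from -0.213 to 0.0313 with 1 library left out. Pcna was at -0.0460 with spike-in totals, -0.0461 with these and without Egfp_OE replicate 2, -0.107 over shared P numbers and from -0.0924 to 0.199 with 1 library left out. Rfc2 was at -0.00901 with DESeq2 size factors, -0.00619 in DESeq2, -0.00279 with only the groups compared, -0.0516 with spike-in totals, -0.0519 with these and without Egfp_OE replicate 2, and from -0.0406 to 0.0769 with 1 library left out. With overexpression Ccnd1 was at -0.326 with spike-in totals without Egfp_OE replicate 2, and with 1 library left out it ran from -0.0329 (without Egfp_OE replicate 2) to 0.713 (without Egfp_OE replicate 3). Gins2 was at -0.197 with all libraries and 0.161 without Egfp_OE replicate 2. With 3 libraries a group the exact permutation test cannot go below 0.1, so single genes were judged by the fit over all genes alone.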
